A study of Catharanthus roseus with 15 samples.

Results

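The hormone by time interaction of Catharanthus roseus leaf transcripts is the change from 3 h to 24 h after an ETH spray minus the change over the same hours after an MJ spray. It was computed for each gene from 12 of the 15 libraries, replicates 1 to 3 of each hormone at each of these times, which were chosen by their labelled hormone and time and not by any measured value. ETH (ethephon) breaks down to ethylene in the plant, and MJ is methyl jasmonate. Seedlings of the Vitae Rose Red cultivar received 100 µM of one hormone, and the 3 libraries of the 0 h control, which are outside the contrast, entered the fit and are given as the starting level. The labels put the age of the seedlings at 2 weeks. The paper gives an older age. No water-sprayed library of 3 h or 24 h was analysed here, so the hour of sampling and the handling cannot be told apart from a hormone's course, but both hormones share them. The libraries are of leaf RNA, and nothing in the labels says how many plants each one holds, so the p-values measure the spread between these libraries. Reads were counted per gene, with 23710688 to 31168281 counts per library.

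Jasmonates are made from fatty acids of the chloroplast membranes. A desaturase, lipases that free these fatty acids and a 13-lipoxygenase act early in the pathway. The active hormone releases MYC-type bHLH factors from their repressors, after which genes of the pathway's own synthesis are switched on. Ethylene binds to a family of receptors at the endoplasmic reticulum, which relieves the CTR1 kinase's block on EIN2 and lets EIN3 accumulate, while EBF proteins mark EIN3 for degradation. In C. roseus both hormones are known elicitors of the monoterpenoid indole alkaloids, whose catharanthine and vindoline branches meet in the anticancer dimers.

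A positive interaction, called higher below, means that the gene's level moved up more, or down less, under ETH than under MJ. A gene was called at a Benjamini-Hochberg adjusted p under 0.05 in edgeR's quasi-likelihood test with a fold above 1.5 or below 0.667. Of 18008 genes tested, 595 were called (3.3%), 322 higher (1.79%) and 273 lower (1.52%), and 3044 had an unadjusted p under 0.05. The change from 3 h to 24 h alone was called by edgeR for 2950 genes under MJ (16.4%) and for 652 under ETH (3.62%). ETH and MJ differed in 1241 genes at 3 h (6.89%) and in 187 at 24 h (1.04%). By direction, the MJ course rose in 9% and fell in 7.39% of tested genes and the ETH course in 1.78% and 1.84%, and ETH was above MJ in 3.33% and below it in 3.57% at 3 h, and above in 0.6% and below in 0.439% at 24 h. These components share libraries with the interaction and describe it. With voom and quality weights the courses gave 3030 calls under MJ and 2218 under ETH, and the hormone gap gave 1372 at 3 h and 1654 at 24 h, so the order of the gaps turned.

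Among the 322 genes called higher, 269 fell from 3 h to 24 h under MJ with no call under ETH, 16 rose under ETH with no call under MJ, 7 rose under ETH and fell under MJ, 3 fell under both, and 27 had neither course called. Among the 273 called lower, 200 rose under MJ with no call under ETH, 24 fell under ETH and rose under MJ, 21 fell under ETH alone, 2 rose under both, and 26 had neither course called. The median log2 change over the genes called higher was 0.17 under ETH and -1.73 under MJ, and over the genes called lower it was -0.46 and 1.32. Over all tested genes both medians were near 0 (-0.03 and -0.03). The fitted courses had opposite signs in 203 of the genes called higher and in 231 of those called lower. Choosing genes by the difference of the courses favours opposite signs, so these counts describe the calls and are no further result. Both courses were called, in opposite directions, in 7 of the genes called higher and 24 of those called lower. A fold above 4 between the courses was reached by 139 genes called higher and 123 called lower.

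**Figure D1:**
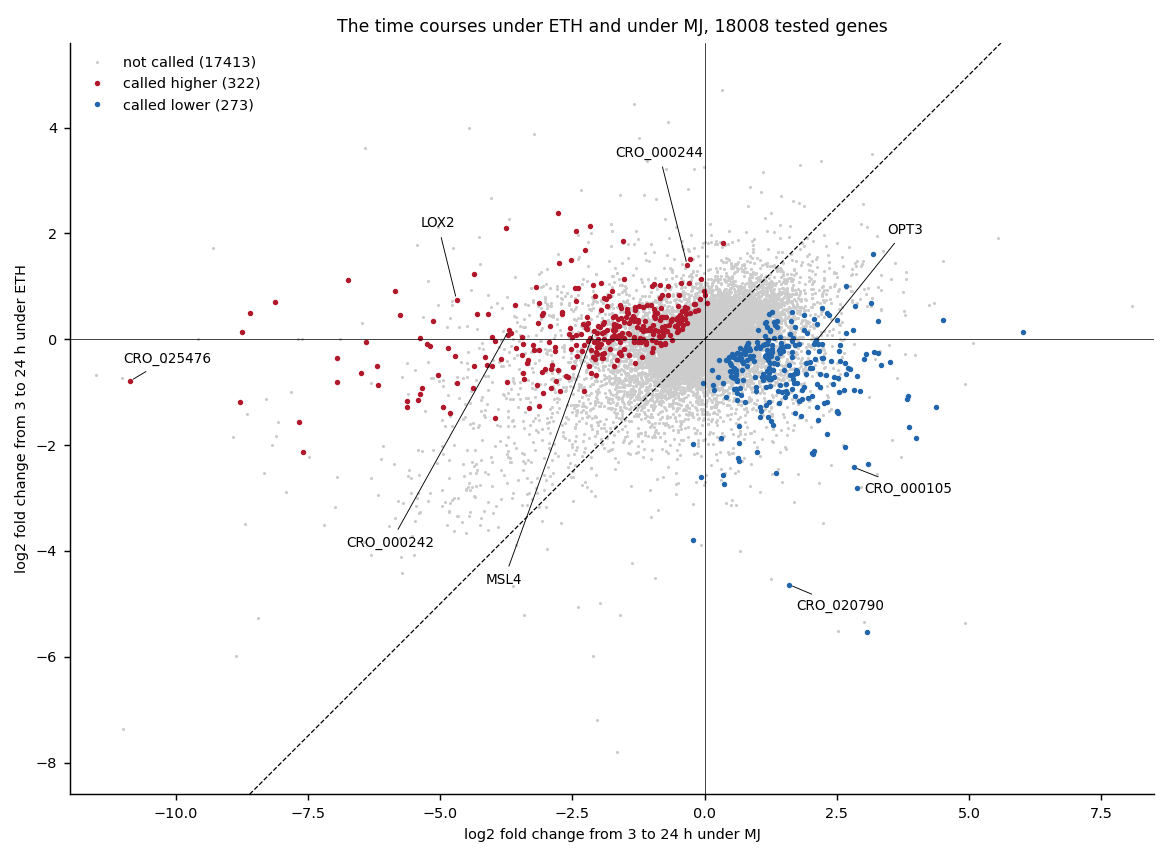
Each point is a tested gene, with its log2 fold change from 3 h to 24 h under MJ on the horizontal axis and under ETH on the vertical axis. The dashed line marks equal change. Genes called higher (322, red) lie to the left of the line and mostly at negative MJ values, and genes called lower (273, blue) lie to its right. Grey points beyond the axes are drawn at their edge.

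The MJ 3 h libraries set the pattern of most called genes. In 293 of the 322 genes called higher (91.0%) the highest of the 4 group means was at MJ 3 h, against 35.2% of all tested genes, and in 251 (78.0%) all 3 MJ 3 h libraries lay above the other 9 treated libraries, against 6.52%. In 222 of the 273 genes called lower (81.3%) the lowest group mean was at MJ 3 h, against 30.7% of all tested genes. All 3 MJ 3 h libraries lay below the other 9 in 153 of them (56.0%), against 4.61%. These shares describe the calls and are not a further test, since the same libraries made both. The median log2 level of the genes called higher was 1.15, 1.47 and 1.74 above the 0 h mean in the 3 MJ 3 h libraries and lay between -0.26 and 0.14 in the other 9. For the genes called lower it was -1.14, -0.88 and -1.17 at MJ 3 h and between -0.32 and 0.32 elsewhere. By 24 h under MJ, 91.9% of the genes called higher and 91.2% of those called lower were within 1 log2 unit of 0 h, against 93.3% of all tested genes.

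**Figure D2:**
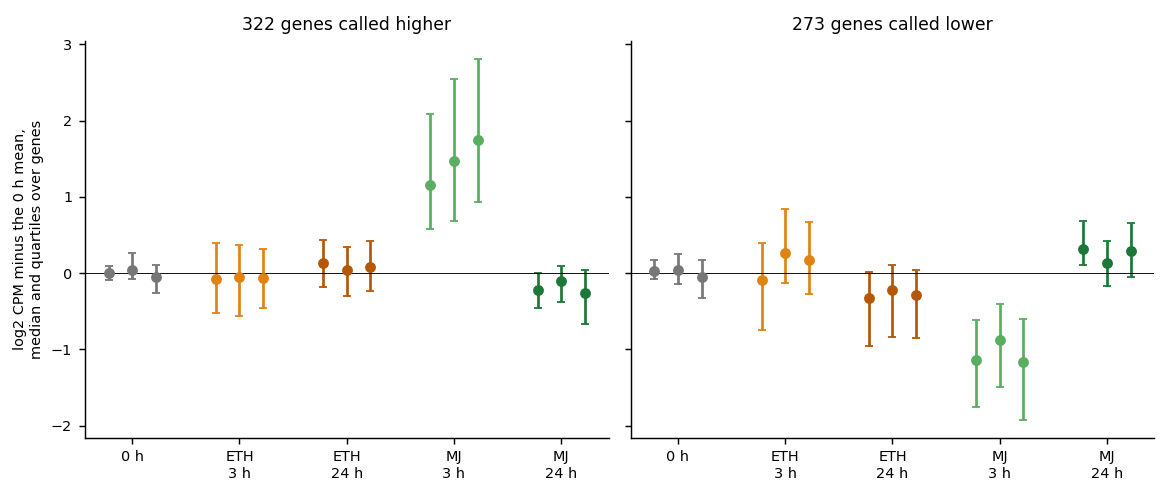
For the 322 genes called higher (left) and the 273 called lower (right), each point is 1 library and shows the median over genes of the log2 CPM minus the 0 h mean, with bars from the lower to the upper quartile over genes. The 3 MJ 3 h libraries stand at 1.15 to 1.74 on the left and at -1.17 to -0.88 on the right, apart from all other libraries.

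A smaller number of genes carried the difference at 24 h. The gap between the hormones was larger at 24 h than at 3 h in 40 of the genes called higher (12.4%) and in 79 of those called lower (28.9%). The interaction is the 24 h gap minus the 3 h gap, so in these genes its sign fixes the direction at 24 h. ETH 24 h is then above MJ 24 h in genes called higher and below it in genes called lower, which is no separate result. The median level of the called genes over the 12 treated libraries was 43.8 CPM for genes called higher and 30.0 CPM for genes called lower, against 20.6 CPM over all tested genes. CPM is a gene's count scaled to the same TMM-adjusted library size in every library.

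Names could be read for few of these genes. Of the 538 tested genes with a name or a description, 16 were called, beside 3.3% of all tested genes. Of the 16, 9 had a name and 7 only a described Arabidopsis match. A symbol such as LOX2 or MSL4 is that of the closest Arabidopsis gene. The remaining called genes carry an ID only, and of them the 2 highest and the 2 lowest interactions among genes above 1 CPM whose libraries did not overlap in the larger hormone gap are given by ID.

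LOX2, CRO_000213, is the match to the chloroplast 13-lipoxygenase that starts jasmonate synthesis from linolenic acid. The gene table places it on scaffold cro_scaffold_3056953 from 15942 to 24980 on the minus strand. Its level was 1432, 3442 and 3684 CPM at MJ 3 h and 44.2, 179 and 108 CPM at MJ 24 h. Under ETH it was 85.1, 51.0 and 201 CPM at 3 h and 239, 188 and 138 CPM at 24 h. The 0 h libraries were spread widely, at 591, 266 and 70.0 CPM. The MJ 3 h libraries were far above all others, and the ETH libraries of both times overlapped those of MJ 24 h. LOX2 fell from 3 h to 24 h under MJ (log2 -4.69, adjusted p = 0.0027), its ETH change was 0.75 (adjusted p = 0.578), and the interaction was 5.44 (SE 1.09, adjusted p = 0.0208). Of the 15 fits with 1 library left out, 3 ended the call, which dropped replicate 2 of ETH 3 h or replicate 1 of either 24 h group, with an adjusted p of up to 0.0567.

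CRO_000242 matches a diacylglycerol acyltransferase family member (AT3G51520), a family that makes triacylglycerol from diacylglycerol. At MJ 3 h it stood at 217, 279 and 420 CPM, and at MJ 24 h at 20.9, 26.4 and 23.0 CPM. ETH libraries held 17.4, 22.4 and 29.4 CPM at 3 h and 26.5, 25.1 and 26.2 CPM at 24 h. Only the MJ 3 h libraries left the range of 0 h (19.5 to 38.3 CPM) upward, by a wide margin. Its interaction of 3.87 (SE 0.398, adjusted p = 0.000701) was called in each of the 15 fits with a library left out, with an adjusted p of at most 0.00339. The gene lies on cro_scaffold_2988426 from 35797 to 39962 on the plus strand.

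MSL4, CRO_000898, is a mechanosensitive ion channel of the small-conductance type. It had 23.1, 30.8 and 15.7 CPM at MJ 3 h and 5.62, 4.82 and 5.88 CPM at MJ 24 h, whereas ETH libraries had 9.30, 5.10 and 7.35 CPM at 3 h and 7.19, 6.66 and 10.3 CPM at 24 h. Its lowest MJ 3 h library was above every other library, including 0 h. The interaction was 2.24 (SE 0.378, adjusted p = 0.00845), and every fit with 1 library left out kept it called, with an adjusted p of at most 0.0294. CRO_000015, a match to the pectin acetylesterase family, which removes acetyl groups from cell-wall pectin, took the same shape at 158, 237 and 364 CPM at MJ 3 h, against 65.0 to 144 CPM in the other 9 treated libraries. Its interaction of 1.68 (SE 0.409) had an adjusted p of 0.046, and 13 of the 15 fits with a library left out ended the call, as did the fit to only the 12 treated libraries (adjusted p = 0.083) and no filter.

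**Figure D3:**
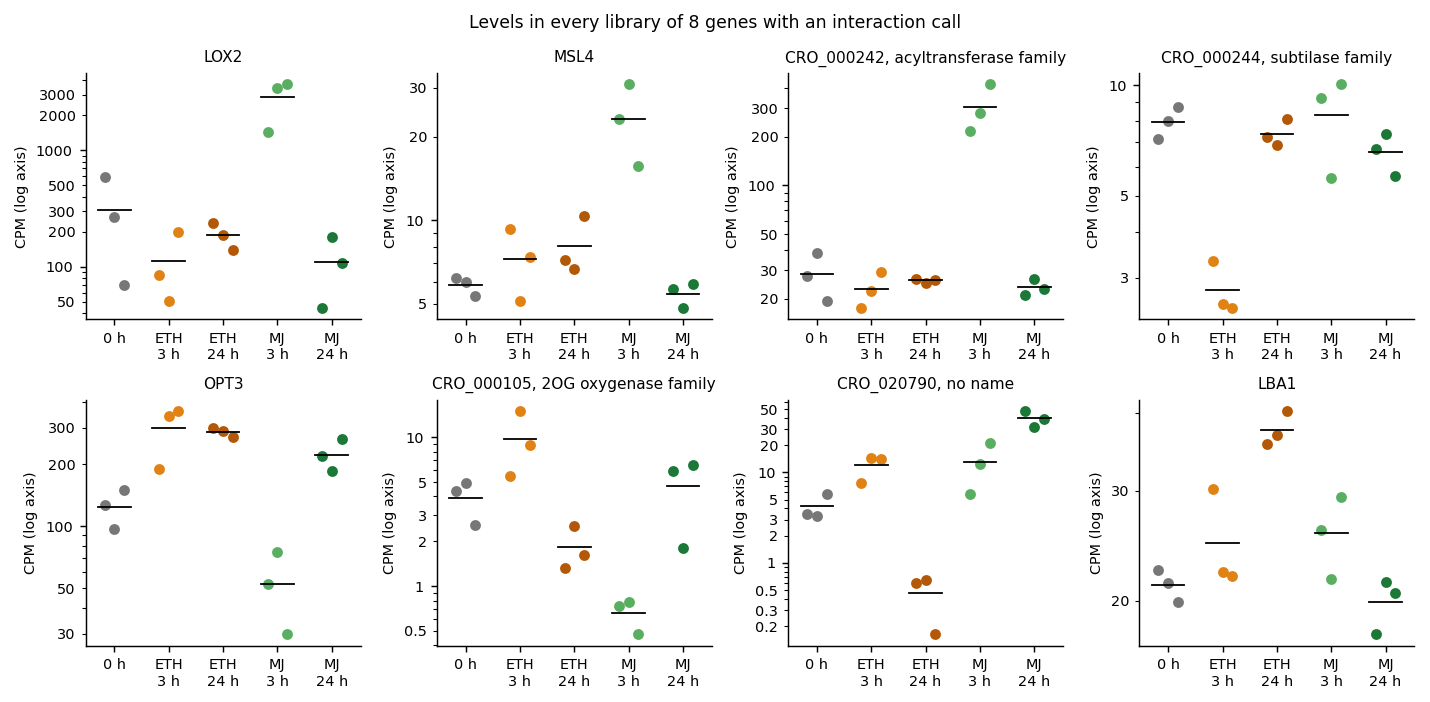
CPM on a log axis in all 15 libraries for 8 called genes, with 1 point per library in the order of replicates 1 to 3 and a bar at the group mean. LOX2, MSL4 and CRO_000242 peak in the MJ 3 h libraries, OPT3 and CRO_000105 are lowest there, CRO_000244 is lowest at ETH 3 h, CRO_020790 is lowest at ETH 24 h and LBA1 is highest at ETH 24 h.

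In all 6 named genes called lower, the lowest of the 4 treated group means was at MJ 3 h, but it was not below the 0 h level in each of them. OPT3, CRO_000102, is the match to an oligopeptide transporter that in Arabidopsis loads iron into the phloem. It was at 52.4, 74.7 and 29.8 CPM at MJ 3 h and at 218, 185 and 264 CPM at MJ 24 h, while ETH libraries held 189, 341 and 363 CPM at 3 h and 299, 290 and 271 CPM at 24 h. All MJ 3 h values were below those of 0 h (96.7 to 150 CPM), and all ETH values were above them. OPT3 rose under MJ (2.09, adjusted p = 0.00127), its ETH change was -0.05, and the interaction was -2.14 (SE 0.447, adjusted p = 0.0246). In 6 of the 15 fits with a library left out the call ended, with an adjusted p of up to 0.0631.

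CRO_000105 matches a 2-oxoglutarate and Fe(II)-dependent oxygenase (AT4G10490), a superfamily whose members hydroxylate hormones and specialised metabolites. It had 0.734, 0.782 and 0.473 CPM at MJ 3 h, 5.89, 1.80 and 6.46 CPM at MJ 24 h, 5.5, 15.1 and 8.83 CPM at ETH 3 h and 1.32, 2.54 and 1.62 CPM at ETH 24 h. Both courses moved, in opposite directions: it rose under MJ (2.82, adjusted p = 0.00353) and fell under ETH (-2.42, adjusted p = 0.0237). The interaction of -5.24 (SE 0.734, adjusted p = 0.00296) is the largest among the genes with a name or description that were called lower, and no fit with 1 library left out ended it. Its gene model runs from position 2 to 809 of cro_scaffold_3063010, at the edge of the scaffold, on the minus strand.

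The ETH 3 h libraries of EXO70E1, CrNFXL1 and CRO_015412 lay above all their 0 h libraries. EXO70E1, CRO_000265, a subunit of the exocyst that tethers secretory vesicles, had 40.7, 40.8 and 46.1 CPM at MJ 3 h and 61.3, 52.5 and 68.0 CPM at MJ 24 h, against 85.9, 125 and 96.0 CPM at ETH 3 h and 71.2, 68.8 and 63.1 CPM at ETH 24 h. Its 0 h libraries held 56.5, 66.4 and 44.3 CPM. The hormones were apart at 3 h and overlapped at 24 h, and its interaction was -1.10 (SE 0.235, adjusted p = 0.0263). CrNFXL1, CRO_019411, an NF-X-like zinc finger protein, took 39.4, 45.0 and 38.9 CPM at MJ 3 h and 59.8, 73.7 and 66.7 CPM at ETH 3 h, and all 24 h libraries of both hormones lay from 50.2 to 60.9 CPM (interaction -0.80, SE 0.175, adjusted p = 0.0298). MJ 3 h was within the range of its 0 h libraries, 37.5 to 50.7 CPM. A bHLH transcription factor, CRO_015412, had 106, 125 and 127 CPM at MJ 3 h, 177, 180 and 209 CPM at MJ 24 h and 202 to 264 CPM under ETH (interaction -0.82, SE 0.195, adjusted p = 0.0414). Its 0 h libraries held 86.8, 115 and 107 CPM, a range that MJ 3 h overlapped and the other treated groups exceeded. Fits with 1 library left out ended the calls of EXO70E1, CrNFXL1 and CRO_015412 in 4, 6 and 7 of 15 cases, in that order. Scaling by library totals ended all of them, and that of CRO_015412 also ended with voom (adjusted p = 0.0516), with no filter and without the first 3 h replicates of both hormones.

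HSFA3, CRO_000076, a heat stress transcription factor, ranged only from 5.67 to 7.39 CPM at MJ 3 h, from 9.89 to 11.2 CPM at MJ 24 h, from 9.67 to 11.9 CPM at ETH 3 h and from 6.83 to 8.92 CPM at ETH 24 h, so that the order of the hormones at 3 h was the opposite of that at 24 h without overlap (adjusted p = 0.0468 for the interaction). Its 0 h libraries held 7.55, 11.4 and 7.01 CPM, a range that overlapped each treated group. HSFA3 is close to the threshold, as 11 of the 15 fits with a library left out ended the call, and so did scaling by library totals, no filter, and leaving out the first 3 h replicates of both hormones. NRT1:2, CRO_000969, the match to a nitrate transporter of Arabidopsis, had 1.21, 3.55 and 2.05 CPM at MJ 3 h and 8.95, 7.09 and 8.32 CPM at MJ 24 h, and under ETH it had 2.59, 5.30 and 7.75 CPM at 3 h and 1.88, 2.06 and 4.04 CPM at 24 h. Its hormone groups overlapped at 3 h and were apart at 24 h, with an interaction of -2.80 (SE 0.626, adjusted p = 0.0321). CRO_000654, described only as matching a DNA-binding protein, lay from 183 to 274 CPM at MJ 3 h and from 295 to 523 CPM in the other treated libraries (interaction -1.13, adjusted p = 0.045). The last pair of calls ended in 7 and 10 of the 15 fits, in that order, and both ended in the fit to only the 12 treated libraries (adjusted p = 0.0637 and 0.0618). Library totals and no filter also ended that of CRO_000654.

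In CRO_000244 and CRO_000163, both called higher, the ETH 3 h libraries lay below the other 9 treated libraries. CRO_000244, a match to the subtilase family of serine proteases, had 3.33, 2.55 and 2.48 CPM at ETH 3 h and 7.22, 6.87 and 8.09 CPM at ETH 24 h. MJ libraries had 9.25, 5.58 and 10.1 CPM at 3 h and 6.72, 7.39 and 5.66 CPM at 24 h, within or close to the 0 h range of 7.15 to 8.72 CPM. It rose under ETH (1.41, adjusted p = 0.0118), and its interaction of 1.74 (SE 0.307, adjusted p = 0.011) stayed called in each fit with a library left out. CRO_000163, of the ERD (early-responsive to dehydration stress) family, had 166, 125 and 176 CPM at ETH 3 h and 224 to 330 CPM in the other 9 treated libraries (interaction 0.92, SE 0.204, adjusted p = 0.0316). CRO_000723, of the major facilitator superfamily of transporters, had its highest treated mean at MJ 3 h and its lowest at ETH 3 h, with 19.4, 15.8 and 24.4 CPM at ETH 3 h, 37.8, 37.8 and 28.0 CPM at MJ 3 h and 24.0 to 28.3 CPM at 24 h, against 35.4 to 36.9 CPM at 0 h (interaction 0.93, SE 0.213, adjusted p = 0.0356). Leaving out 1 library ended the calls of the last pair in 9 and 12 of 15 fits, and both ended in the fit to only the 12 treated libraries (adjusted p = 0.0557 and 0.0746) and with library totals. That of CRO_000723 also ended without the first 3 h replicates of both hormones.

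Among the 20 called genes given here, the largest gap between the hormones at 24 h was that of CRO_020790, a gene without a name. Its level was 0.602, 0.642 and 0.162 CPM at ETH 24 h and 48.0, 31.8 and 38.6 CPM at MJ 24 h, while at 3 h it was 7.55, 14.4 and 13.9 CPM under ETH and 5.73, 12.5 and 20.9 CPM under MJ. The hormones overlapped at 3 h, and at 24 h one stood below and the other above all 0 h libraries (3.33 to 5.80 CPM). It fell under ETH (-4.64, adjusted p = 0.00725) and rose under MJ (1.60, adjusted p = 0.0294), with an interaction of -6.24 (SE 0.731, adjusted p = 0.00124) that every fit with a library left out kept. CRO_020365, also unnamed, had 1.62, 0.406 and 0.404 CPM at ETH 24 h and 18.3, 38.9 and 5.04 CPM at MJ 24 h, and its 3 h libraries lay from 0.881 to 4.15 CPM (interaction -5.52, SE 1.11, adjusted p = 0.0214, lost in 3 of 15 fits and with voom at 0.0655). LBA1, CRO_000406, the RNA helicase of nonsense-mediated mRNA decay, was highest at ETH 24 h with 35.7, 36.8 and 40.3 CPM, against 17.7, 21.4 and 20.6 CPM at MJ 24 h. Its 3 h libraries overlapped, at 30.2, 22.2 and 21.9 CPM under ETH and 25.9, 21.7 and 29.4 CPM under MJ (interaction 0.97, SE 0.207, adjusted p = 0.0272, lost in 11 of 15 fits). Its call also ended in the fit to only the 12 treated libraries (adjusted p = 0.0532) and with library totals.

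The highest interaction among the unnamed genes taken by the rule was that of CRO_025476. It had 227, 194 and 981 CPM at MJ 3 h and 0.113, 0.110 and 0.511 CPM at MJ 24 h, and its ETH libraries lay from 0.150 to 0.451 CPM at both times. The 0 h libraries held 4.73, 5.43 and 0.180 CPM, so that it was low in most libraries and high only at MJ 3 h (interaction 10.08, SE 2.14, adjusted p = 0.0262, lost in 5 of 15 fits). CRO_033627 was at 24.1, 73.4 and 78.1 CPM at MJ 3 h. Of its other 12 libraries, none exceeded 0.438 CPM and 6 held no count, so the size of the fitted interaction depends on the prior count and is no bound (adjusted p = 0.0232, lost in 3 of 15 fits).

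Among the other members of the jasmonate list, FAD7 and CRO_000734 also were high at MJ 3 h and low at MJ 24 h, without reaching the threshold for the interaction. FAD7, CRO_000423, the chloroplast desaturase that makes linolenic acid, had 780, 1934 and 2343 CPM at MJ 3 h and 70.0, 66.0 and 54.0 CPM at MJ 24 h. Its 0 h libraries held 185, 296 and 45.2 CPM. Its ETH libraries held 100, 131 and 155 CPM at 3 h and 20.5, 32.1 and 43.8 CPM at 24 h, so ETH values also were lower at 24 h without overlap (-2.0, adjusted p = 0.0626), and the interaction was 2.73 (SE 0.791, adjusted p = 0.089). DESeq2 called it (adjusted p = 0.00883), and so did the fit to only the 12 treated libraries (0.0361). CRO_000734, which matches the bHLH gene AT5G46760 known as MYC3 in Arabidopsis, had 23.0, 24.1 and 173 CPM at MJ 3 h and no count in any MJ 24 h library. Against a floor of 3 counts over that group, its pooled MJ 3 h level of 70.5 CPM was at least 1910-fold higher. Its ETH libraries lay from 0 to 0.200 CPM, and the interaction was not called (adjusted p = 0.234), with a large error where groups have almost no counts.

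A phospholipase A match, CRO_000862, moved the other way at 6.03, 5.26 and 2.92 CPM at ETH 3 h and 1.35, 1.42 and 1.33 CPM at ETH 24 h, with overlapping MJ libraries from 1.46 to 4.42 CPM (interaction -2.32, SE 0.59, adjusted p = 0.0539). It was called by DESeq2 (adjusted p = 0.00575), by voom (0.0421), with library totals and with at least 10 counts in every library. MYC5, CRO_013544, had an interaction of -0.09 (SE 0.613, adjusted p = 0.967). Of the 5 tested genes of the list of 6, 1 was called higher and 0 lower, beside 3.3% of all tested genes, and the list's median interaction was 2.73 (1.34 where at least 10 counts were asked of every library) against 0.01 over all genes. The median change was -4.69 under MJ and -0.68 under ETH.

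Of 9 tested ethylene signalling genes of 10 listed, 3 differed between the hormones at 3 h and 3 at 24 h, beside 6.89% and 1.04% of all tested genes. For the interaction 0 of the 9 were called, beside 3.3% of all tested genes, 0 had an unadjusted p under 0.05, and the values ran from -0.81 to 0.28 with a median of -0.08. DESeq2 called none of them either, beside 7.35% of all tested genes. CrEBF2, CRO_005880, the F-box protein that targets EIN3, had 3929, 4111 and 4130 CPM at ETH 3 h and 3975, 4209 and 4397 CPM at ETH 24 h. MJ libraries held 474, 884 and 480 CPM at 3 h and 759, 899 and 1679 CPM at 24 h. The ETH libraries of the 2 times overlapped and were above all MJ libraries, with a called log2 gap between the hormones of 2.73 at 3 h and of 1.92 at 24 h (adjusted p = 0.000494 and 0.0213) and an interaction of -0.81 (SE 0.453, adjusted p = 0.404). The receptor gene CrEIN4, CRO_020097, had 32.8 to 37.2 CPM in the 6 ETH libraries and 10.1 to 19.9 CPM in the 6 MJ libraries (interaction -0.23, SE 0.237). CrMKK9, CRO_011505, a MAP kinase kinase, had 340 to 446 CPM under ETH and 116 to 208 CPM under MJ (interaction -0.23, SE 0.288).

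The remaining genes of this list had small interactions. They were -0.06 for the kinase CrCTR1, -0.08 for the receptor CrETR1, -0.25 for the transcription factor CrEIN3, 0.27 for CrEER4 and 0.05 and 0.06 for a pair of IDs that both carry the name CrEIN2 and may share reads. None of their standard errors was above 0.195. A missed threshold does not show that the courses were equal.

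ERF/AP2 factors, the family that carries ethylene and jasmonate responses to promoters, also had 0 calls among 6 tested genes, beside 3.3% of all tested genes, with 2 at an unadjusted p under 0.05 and interactions from -1.23 to 1.42. CrERF13, CRO_008428, had 332, 398 and 301 CPM at ETH 3 h and 119, 125 and 117 CPM at ETH 24 h, and its MJ libraries ran from 77.0 to 166 CPM. It fell under ETH (-1.52, adjusted p = 0.0205), and the difference from MJ was -1.19 (SE 0.418, adjusted p = 0.159). CrERF15, CRO_019273, had 34.4, 39.9 and 22.4 CPM at ETH 3 h, 12.6, 17.5 and 19.6 CPM at ETH 24 h, 2.13, 7.21 and 4.77 CPM at MJ 3 h and 0.491, 1.03 and 1.17 CPM at MJ 24 h. It was lower at 24 h under both hormones without overlap (interaction 1.42, SE 1.01, adjusted p = 0.544). CrRAV1 had an interaction of -1.23 (SE 0.404, adjusted p = 0.133), which DESeq2 called, and CrRAP2.12 had 0.26 (SE 0.211). The cytokinin response factors CRF3 and CRF4, at 6.61 CPM or less in every library, had standard errors of 1.81 and 1.65.

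For the catharanthine branch, 0 of 4 tested genes were called by edgeR, DESeq2 or voom. Over all tested genes these called 3.3%, 7.35% and 6.47%, in that order. An unadjusted p under 0.05 was found for 0 of the 4. GO, geissoschizine oxidase, had an interaction of 0.71 (SE 0.45), catharanthine synthase CS -0.70 (SE 0.751), tabersonine synthase TS -0.52 (SE 0.544) and the peroxidase PRX1, which couples catharanthine to vindoline, 0.46 (SE 0.493). CS was at 1.49 CPM or less in every library. The hormone gap was called by edgeR for 1 of the 4 at 3 h, beside 6.89% of all tested genes, and for 0 at 24 h, beside 1.04%. The 1 was CS, with ETH above MJ (log2 1.91, adjusted p = 0.0498). TS, CRO_011212, had 1842, 1946 and 1742 CPM at ETH 3 h and 1142, 993 and 1065 CPM at ETH 24 h, against 1138, 1358 and 551 CPM at MJ 3 h and 642, 862 and 1032 CPM at MJ 24 h. The means were lower at 24 h under both hormones, without overlap under ETH and with overlap under MJ.

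Genes of the vindoline branch, the iridoid pathway and heteroyohimbine synthesis had positive interactions in 9 of 9 cases, from 0.50 to 3.46 with a median of 1.72, but 0 were called by edgeR, beside 3.3% of all tested genes, 2 had an unadjusted p under 0.05, and 51.4% of all tested genes were positive. DESeq2 called 1 of the 9, beside 7.35% of all tested genes, and voom with quality weights 2, beside 6.47%. HYS, CRO_008342, heteroyohimbine synthase, had 62.7, 6.08 and 25.2 CPM at MJ 3 h and 2.42, 1.65 and 1.21 CPM at MJ 24 h. Under ETH it held 14.5, 2.55 and 4.79 CPM at 3 h and 4.89, 3.45 and 5.30 CPM at 24 h, so the second MJ 3 h library was within the ETH range (interaction 3.46, SE 1.05, adjusted p = 0.105). Without the first 3 h replicates of both hormones it was called.

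The other genes of the list shared a spread between replicates at 3 h. T16H, CRO_017447, a tabersonine 16-hydroxylase, had 170, 16.7 and 95.5 CPM at MJ 3 h and 91.8, 14.4 and 11.9 CPM at ETH 3 h (interaction 1.96, SE 1.25). T3R, CRO_021541, the reductase that follows T3O in the vindoline branch, had 882, 221 and 493 CPM at MJ 3 h and 532, 147 and 160 CPM at ETH 3 h (interaction 1.78, SE 0.773). In both genes the first replicate was the highest under either hormone. The interactions of T16OMT, NMT, D4H, G8O, BIS2 and T3O-part, the last at 0.771 CPM or less in every library, ran from 0.50 to 1.79, with standard errors from 0.701 to 2.03.

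**Figure D4:**
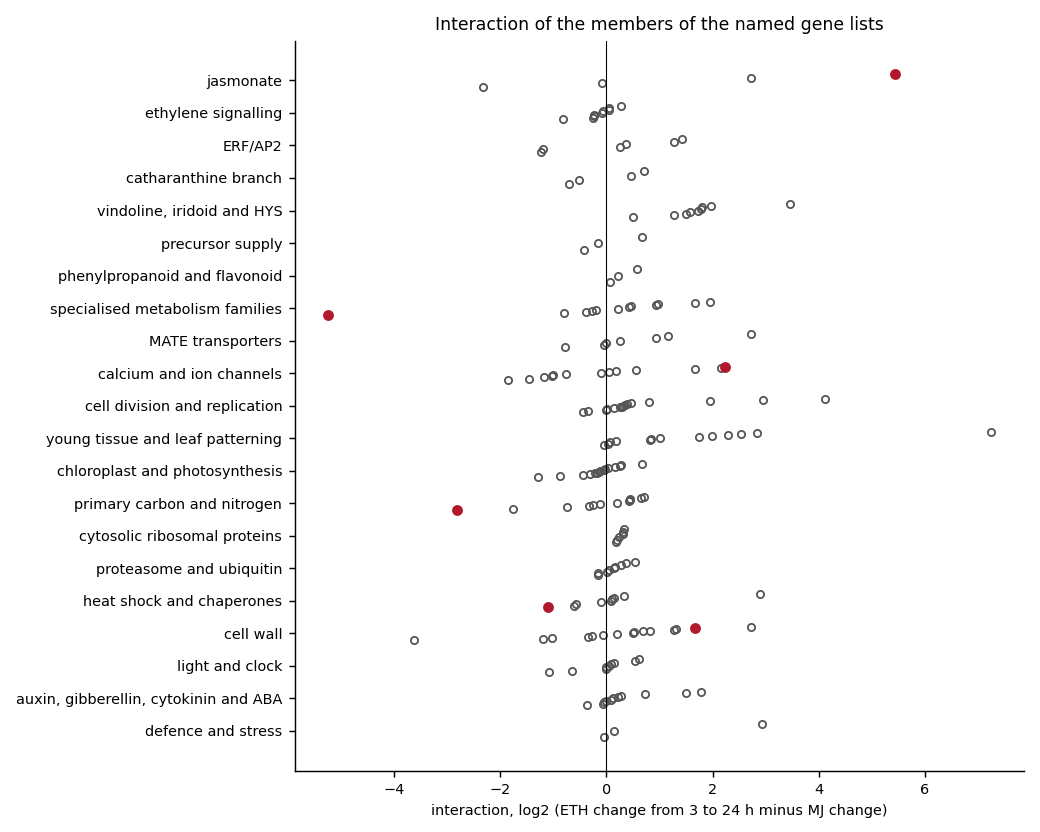
Each circle is a tested member of a named list, placed by its interaction in log2 units, with members spread vertically within a list by rank. Filled circles are called genes, and CRO_000734 is left out because a group without counts leaves its size open to the prior count. The 9 genes of the vindoline, iridoid and HYS list all lie right of 0 and the ethylene signalling genes lie near it.

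Another 5 lists held 1 called gene each, beside 3.3% of all tested genes, and each of these genes has been described. The list of calcium and ion channel genes had 1 of 13 called (MSL4), with a median interaction of -0.10 and a range from -1.84 to 2.24. Genes of specialised metabolism families had 1 of 12 (CRO_000105, median 0.32), cell wall genes 1 of 15 (CRO_000015, median 0.50), genes of primary carbon and nitrogen metabolism 1 of 12 (NRT1:2, median 0.04) and heat shock and chaperone genes 1 of 9 (HSFA3, median 0.08). The remaining 11 lists, which include precursor supply, chloroplast, ribosomal protein, proteasome, cell division and light and clock genes, had 0 called members among 94 tested, beside the same 3.3%. An unadjusted p under 0.05 was found for 11 of these 94 genes, beside 3044 of all 18008 tested. DESeq2 and voom each called 5 of the 94, beside 7.35% and 6.47% of all tested genes.

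The libraries of 3 h were not alike within groups. Over all tested genes, the library nearest to replicate 1 of ETH 3 h was replicate 1 of MJ 3 h, and the reverse (r = 0.952), and MJ 3 h replicate 2 lay nearest to a library of ETH 3 h (r = 0.960). Among libraries of other times, MJ 24 h replicate 3 lay nearest to ETH 3 h replicate 3 (r = 0.979). Replicate 3 of 0 h lay nearest to MJ 24 h replicate 1 (r = 0.976). The remaining libraries of 0 h and 24 h lay nearest to one of their own group. The summed level of 8 meristem and young-leaf markers, 7 of them with a count, was 162 CPM in ETH 3 h replicate 1 and 300 CPM in MJ 3 h replicate 1, against 33.8 to 121 CPM in the other 13 libraries. For 10 dividing-cell markers it was 79.5 and 114 CPM, against 35.7 to 44.9 CPM, and for 7 epidermal markers, of which 3 had no count anywhere, it was 203 and 313 CPM, against 51.0 to 146 CPM. Mesophyll markers were present in every library, at 1680 to 6750 CPM. MJ 3 h replicate 1 was also the highest library for all 9 genes of the vindoline, iridoid and HYS list, and the part of tissue makeup in their values was not tested. In leaf RNA, fewer cells of a type and less RNA per cell cannot be told apart.

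Leaving out these first replicates of 3 h together gave 913 interaction calls, 485 higher and 428 lower, of which 525 were among the 595. In that fit 423 of the 485 (87.2%) had their highest mean at MJ 3 h and 319 of the 428 (74.5%) their lowest. Fits with 1 library left out gave from 258 calls without ETH 24 h replicate 1 to 1077 without ETH 3 h replicate 1. At ETH 3 h, dropping replicate 2 gave 278 and dropping replicate 3 gave 358. At ETH 24 h, dropping replicate 2 or 3 gave 324 or 277. For MJ, the count was 390 with replicate 3 of 3 h dropped and 309 with replicate 1 of 24 h dropped. No called gene changed its sign in any fit.

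**Figure D5:**
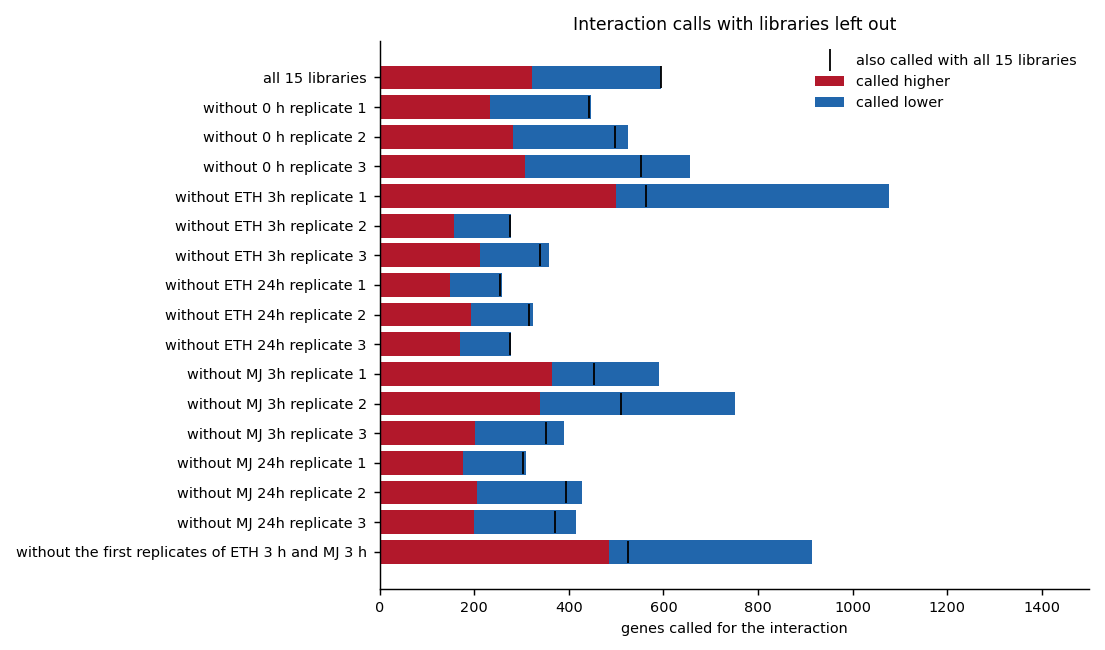
Bars count the genes called for the interaction with all 15 libraries and with the named library or pair left out, split into higher (red) and lower (blue), and a black tick marks how many were also called with all 15. The count runs from 258 without ETH 24 h replicate 1 to 1077 without ETH 3 h replicate 1.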

How the data were processed

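Leaf RNA of 15 libraries, 3 in each of 5 groups, was assigned to groups by the labels. The submitters' processing notes name HISAT2 2.0.4 as aligner. The authors used it on stranded paired reads, ran HTSeq to count per gene, and deposited the raw counts of 33829 genes, 12077 of them without a count. More than one genome source is named in the methods, and neither the one behind the counts nor the strand setting is stated there, so antisense partners may share reads. The labels' extraction text names an animal brain region and was taken as left over. Depths and factors were 23710688 to 31168281 counts (median 26443250) and 0.8875 to 1.139 (TMM).

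The fit was made by edgeR 4.0.16 in R 4.3.3 (filterByExpr, TMM, glmQLFit with a mean per group over all 15 libraries, common BCV 0.342), and p-values were adjusted over the 18008 genes kept. Log2 levels used a prior count of 2. A standard error is the log2 change divided by the square root of F. Names came from the study's supplementary tables, of which 1022 lines of the gene table could be read: 305 IDs had a name, 333 only a description, and 0 matched the RefSeq table. Named genes are every called gene with a name or description, every member of the jasmonate, ethylene, ERF/AP2, catharanthine and vindoline lists, and 4 unnamed genes. Members and lists were chosen with earlier results of these data known. The script was tested on simulated data. Replicate numbers were not used as a pairing in the main fit. Alternatives were DESeq2 1.42.0, limma 3.58.1 voom, glmTreat, other scaling, filters and folds, fewer libraries and a replicate block. Figures used matplotlib 3.10.9.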

Additional observations from a re-analysis of the deposited data

Results flagged for a closer look

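The interaction is itself a test of whether the change from 3 h to 24 h differed between the hormones, so each call was flagged. In edgeR 595 genes passed, and only the 20 given by name, description or ID are listed here. The log2 interactions of the named genes called higher were 5.44 for LOX2, 2.24 for MSL4 and 0.97 for LBA1, and those of the described genes were 3.87 for CRO_000242, 1.74 for CRO_000244, 1.68 for CRO_000015, 0.93 for CRO_000723 and 0.92 for CRO_000163. Among those called lower they were -2.80 for NRT1:2, -2.14 for OPT3, -1.10 for HSFA3 and EXO70E1, -0.82 for the bHLH gene CRO_015412, -0.80 for CrNFXL1, -5.24 for CRO_000105 and -1.13 for CRO_000654. The genes given by ID had 10.08 (CRO_025476), -6.24 (CRO_020790) and -5.52 (CRO_020365). CRO_033627 had a fitted value of 9.08, which depends on the prior count because most of its libraries held few or no counts.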

How the results depend on the processing

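Settings were varied 1 at a time. No called gene changed its sign under any of them, and what moved was the number of calls. DESeq2 gave 1324 interaction calls (609 higher, 715 lower), which included all 595, voom with quality weights gave 1166 (591 and 575, 543 shared), and glmTreat against a fold of 1.5 gave 202 (121 and 81). The ETH course gave 1354 calls with DESeq2 and 2218 with voom, and the hormone gap at 24 h gave 803 and 1654. At 3 h the gap gave 1837 and 1372, so voom called more genes at 24 h than at 3 h. Fits to only the 12 treated libraries gave 115 calls for the gap at 24 h. Without the first 3 h replicates of both hormones there were 913 interaction calls (485 and 428). With 1 library left out, interaction calls ran from 258 to 1077, those higher from 148 to 500 and those lower from 108 to 577. The other scalings, filters and folds, and the fit to only the 12 treated libraries, kept the interaction count within 1.5 times, at 447 to 625.

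The replicate numbers were tested as a pairing. Deviations from the group means were correlated over 18 pairs of libraries with the same number. The values ran from -0.46 to 0.736 (median 0.207, 10 over 0.1), and 1 library correlated best with its own number throughout. The highest value was that of ETH 3 h replicate 1 with MJ 3 h replicate 1. A pair with different numbers, ETH 3 h replicate 3 with MJ 3 h replicate 2, reached 0.715. Whether libraries with the same number share a batch was not tested. A fit with the replicate block gave 489 interaction calls, 444 of them among the 595, and 118 calls for the hormone gap at 24 h. It ended the calls of CRO_000015 (adjusted p = 0.0775), CRO_000723 (0.0648), CRO_000654 (0.0647) and CRO_025476 (0.0507).

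Of the 20 called genes given by name, description or ID, 5 stayed called in all 15 fits with a library left out. Calls ended most often without ETH 3 h replicate 2 (14 genes), ETH 24 h replicates 1 and 2 (13 each), MJ 24 h replicate 1 (12) and ETH 24 h replicate 3 (11). Of the other settings, glmTreat ended 11 of the 20, library totals 8, the fit to only the 12 treated libraries 6, no filter 4, the fit without the first 3 h replicates of both hormones 3, voom 2, DESeq2 and upper-quartile scaling 0, and the minimum of 10 counts 0 of those it kept in the test. Signs turned only in 6 uncalled genes with interactions near 0 or few counts. CRF4 was at -0.30 with the block, and with 1 library left out it ran from -1.48 to 2.34, CRF3 from -0.42 to 3.15, MYC5 from -1.04 to 0.22, CrCTR1 from -0.18 to 0.0151 and the CrEIN2 pair from -0.0463 to 0.10 and from -0.0187 to 0.12. The causes were not tested. Depth limits what can be said of genes at a few counts, such as CRO_033627 and CRO_000734, and 3 libraries per group limit every comparison.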

Other observations

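CRO_000242 and CRO_000244 lie on one scaffold, cro_scaffold_2988426, at 35797 to 39962 on the plus strand and at 5061 to 6630 on the minus strand, and both were called higher. Their levels had different shapes: the first was at 217 to 420 CPM at MJ 3 h and 17.4 to 29.4 CPM in all other treated libraries, and the second at 2.48 to 3.33 CPM at ETH 3 h and 5.58 to 10.1 CPM in the others.

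Among lists with no interaction call, cytosolic ribosomal protein genes fell from 3 h to 24 h in 5 of 6 tested cases under MJ and in 1 of 6 under ETH, beside falls in 7.39% and 1.84% of all tested genes, with a median change of -0.75 and -0.45, and their interactions ran from 0.17 to 0.34 (median 0.28). The difference between these courses passed for none of them (smallest adjusted p = 0.476 in edgeR, 0 with an unadjusted p under 0.05). Light and clock genes rose in 3 of 9 cases under MJ and in 0 under ETH, beside rises in 9% and 1.78% of all tested genes, and their interactions ran from -1.07 to 0.62. Genes of young tissue and leaf patterning had positive interactions in 12 of 13 cases (median 1.0, up to 7.25), with 0 called, and young-leaf markers were highest in the first 3 h replicates of both hormones. With both of these libraries left out the median was 1.22 and 3 of the genes were called, beside 5.06% of all genes tested in that fit. With only MJ 3 h replicate 1 left out it was -0.49, and with only ETH 3 h replicate 1 left out it was 3.88. The part of tissue makeup in these values was not tested.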
